A study of Mus musculus with 19 samples.

Results

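The response of the hippocampus to kainate was measured here in mice that lack EZH2 in neurons, in 9 RNA libraries of the 19 in the series. They are all libraries labelled homozygous EZH2 neuronal knockout (EZH2nHom), 4 taken on day 4 after kainate and 5 on day 4 after saline, and they were chosen by those labels alone. The kainate and saline groups were compared across 19234 genes that passed a filter on low counts. All mice are labelled C57BL6, and the tissue is labelled R. Hippocampus. The EZH2nHom genotype is given as EZH2(-/-);Syn1Cre(+/-): floxed EZH2 alleles were recombined by Cre under a Synapsin1 driver, which is active in neurons, so glia, vessels and blood cells keep the gene. Mice received either saline or kainate intraperitoneally, kainate in repeated low doses until status epilepticus, a seizure that does not stop by itself. The comparison genotype, labelled EZH2(+/+);Syn1Cre(+/-), carries Cre too and has 5 libraries per treatment. Ages are not given. The labels do not state that each library is a separate mouse, so p-values measure the spread between libraries.

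EZH2 is the main catalytic subunit of Polycomb repressive complex 2 (PRC2), which methylates lysine 27 of histone H3 and keeps developmental genes silent; EZH1 is the alternative subunit of cells that no longer divide. Kainate opens a class of ionotropic glutamate receptors that is dense in the hippocampal circuit of dentate granule cells, CA3 and CA1 pyramidal cells. In the days after such a seizure, astrocytes and microglia are known to change their expression, immune and interferon genes are induced, and interneurons of the hilus are among the cells lost. RNA from whole tissue mixes all of these cells, so fewer cells of a type and less RNA per cell cannot be told apart in any result below.

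The EZH2nHom saline libraries held 26114855 to 41404459 reads and the kainate libraries 29778706 to 43948317. Levels are in CPM, reads scaled to a common library size with TMM factors, listed in the order of saline replicates 1 to 5 and kainate replicates 1 to 4. Changes are log2 of kainate over saline ± SE from a quasi-likelihood fit in edgeR over all 19 libraries, and a gene passed at a Benjamini-Hochberg adjusted p under 0.05 over all 19234 genes. Field markers were read beside the tissue label: the summed level of the dentate granule cell list was 759 to 995 CPM in saline and 494 to 782 CPM after kainate, and that of the CA1 list 923 to 1096 and 688 to 830 CPM. Without another tissue for comparison these sums do not check the label. The first principal component of the 9 libraries (46.3% of the variance) parted the treatments, with saline from -54.3 to -44.6 and kainate from 38.1 to 75.2. The second (21.9%) set kainate replicate 2 apart at -93.1, against -9.6 to 49.1 in the others. Results are therefore given with and without that library where it moves them. Sample codes carry a prefix whose meaning is not given; no prefix of the kainate libraries occurs among the saline libraries, so prefix and treatment cannot be told apart. Choroid plexus markers varied widely inside the saline group, with a summed level over 10 genes of 2860, 42.6, 3290, 3899 and 51.2 CPM, against 28.7, 21.8, 728 and 88 CPM after kainate.

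The targeted gene was read first. Ezh2 stood at 15.5, 14.3, 11.8, 13.7 and 12.7 CPM in the saline libraries and 16.7, 19.6, 14.6 and 19.4 CPM in the kainate libraries. The kainate mean was 3.955 CPM above the saline mean, which an exact two-sided permutation test over all relabellings of the 9 libraries placed at p = 0.0238. In the fit across all genes Ezh2 did not pass (log2 change 0.37 ± 0.17, adjusted p = 0.112), while the edgeR fit to the 9 EZH2nHom libraries alone called it higher (log2 change 0.42, adjusted p = 0.0477). Leaving out 1 library at a time gave exact p-values from 0.0179 to 0.0571. The mean was 13.6 ± 1.42 CPM (SD, n = 5) in EZH2nHom saline against 11.2 ± 1.17 CPM (SD, n = 5) in WT saline, so the count over the whole gene was not lower in the libraries labelled knockout. The labels do not name the floxed exon and glia keep the gene, so this count does not check the genotype labels.

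Kainate changed 5012 genes in EZH2nHom (26.1% of those tested): 2746 rose (14.3%) and 2266 fell (11.8%). Counts of list members below are to be read beside these shares. Rises were larger than falls. Of the genes that rose, 1558 did so by 2-fold or more and 790 by 4-fold or more, with a median log2 change of 1.18. Of those that fell, 311 did so by 2-fold or more and 46 by 4-fold or more, with a median of -0.49. Over all genes tested the median was -0.02. Every kainate library lay above every saline library for 1910 genes (9.93%) and below every one for 1776 (9.23%). Without kainate replicate 2 the calls were 2994 higher and 3102 lower with more falls than rises. Of the main calls, 2382 of 2746 rises and 1903 of 2266 falls were called there too. A fit to the 9 EZH2nHom libraries alone called 3066 genes, 935 of them lower, fewer by more than 1.5 times.

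**Figure D1:**
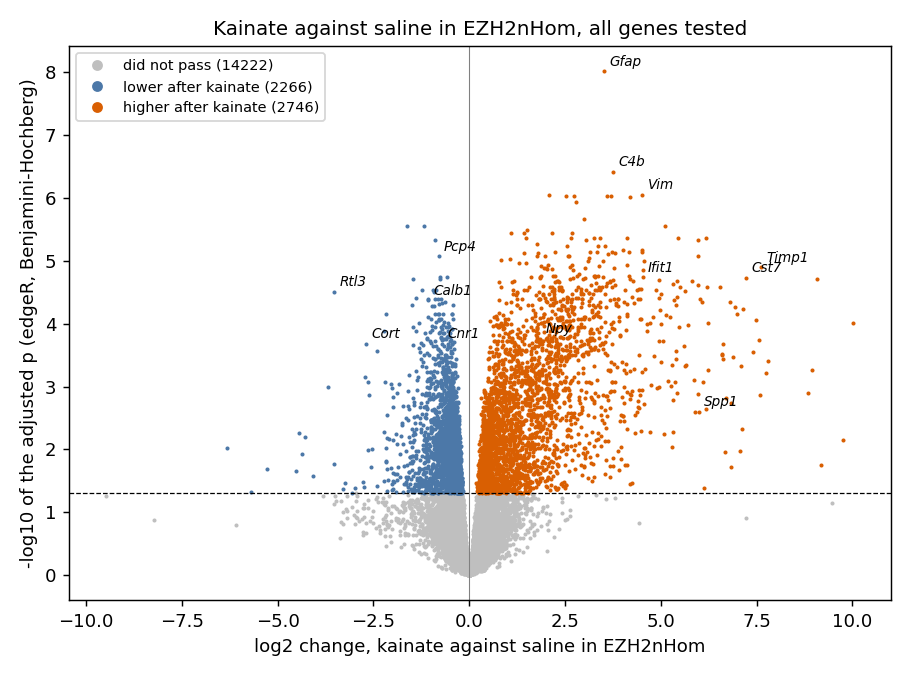
Each point is 1 of 19234 genes, with the log2 change of kainate over saline in EZH2nHom on the x axis and -log10 of the adjusted p on the y axis. The dashed line marks the threshold; the 2746 genes that rose spread much further from 0 than the 2266 that fell.

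Among called, named genes of at least 1 CPM whose groups do not overlap, the largest rises were of genes that saline hippocampus hardly expresses. Tgm1, a transglutaminase that cross-links proteins, had 0, 0.0828, 0, 0.0913 and 0.0595 CPM in the saline libraries and 36.4, 26.1, 38.6 and 95.2 CPM in the kainate libraries. Timp1, a secreted inhibitor of matrix metalloproteinases, had 0.0812, 0.124, 0.237, 0.304 and 0.178 CPM in the saline libraries and 26.5, 39.6, 22 and 60.1 CPM in the kainate libraries (log2 change 7.61 ± 0.84, adjusted p = 1.26e-05). The lack of overlap in the genes of this paragraph is part of how they were picked. Lcn2, an iron-siderophore binding protein secreted by reactive astrocytes, had 0.0812, 0.0414, 0.118, 0.152 and 0.386 CPM in the saline libraries and 15.2, 44.3, 6.21 and 61.2 CPM in the kainate libraries (log2 change 7.59 ± 1.49, adjusted p = 0.00137). Cst7, the cysteine protease inhibitor cystatin F of activated microglia, rose from 0–0.271 to 11.4–25.9 CPM (log2 change 7.23 ± 0.85, adjusted p = 1.87e-05). In Lcn2 the kainate libraries were spread over a wide range. Cd5l, a protein secreted by macrophages, went from 0–0.0542 to 1.61–12.1 CPM, and Apoc2, the lipoprotein lipase cofactor, from 0–0.0297 to 0.855–5.72 CPM. Saa3, an acute-phase serum amyloid, was at 32.7 CPM in kainate replicate 2 and at 0.208–1.32 CPM in the other kainate libraries. For Tgm1, Cd5l, Apoc2 and Saa3 the saline group held 15 reads or fewer, so no fold is given. Apoc2 shares 78.8% of its 31-base words with other genes, which leaves its count uncertain.

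In reads gained, among called genes without overlap, the rise was led by Gfap, the intermediate filament of astrocytes. Gfap had 333, 358, 329.8, 342 and 259 CPM in the saline libraries and 3686, 2672, 3536 and 4842 CPM in the kainate libraries (log2 change 3.51 ± 0.21, adjusted p = 9.57e-09). It was the gene with the smallest p of all tested. The lysosomal protease gene Ctsd went from 285–385 to 1532–2964 CPM (log2 change 2.57 ± 0.35, adjusted p = 5.92e-05), and Ctsb, another cathepsin, from 310.2–334 to 668–973 CPM (1.33 ± 0.21). Serpina3n, a protease inhibitor of reactive astrocytes, rose from 26.1–40.6 to 495–1115 CPM (4.5 ± 0.46). Trf, transferrin, rose from 272–438 to 496–1223 CPM (1.19 ± 0.33). Shared 31-base words make 3 of these counts uncertain: 33.2% of Ctsd, 21.6% of Serpina3n and 63.9% of Trf.

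Most genes listed as markers of reactive astrocytes rose: 31 of 35 measured (37 listed), against 14.3% of all genes, and 2 fell. Their median log2 change was 3.41, beside -0.02 over all genes, and 2.84 without kainate replicate 2, where 29 rose. Vim, the intermediate filament vimentin, had 34.9, 27.9, 34.8, 30.0 and 22.8 CPM in the saline libraries and 510.3, 890.5, 611 and 748 CPM in the kainate libraries (log2 change 4.52 ± 0.36, adjusted p = 8.89e-07). Aspg, an asparaginase, had 0.84, 0.621, 0.8, 0.973 and 0.832 CPM in the saline libraries and 6.4, 15.8, 8.15 and 9.61 CPM in the kainate libraries (log2 change 3.60 ± 0.31, adjusted p = 9.46e-07). Ggta1, a galactosyltransferase, had 6.72, 4.14, 5.39, 4.44 and 4.79 CPM in the saline libraries and 31.9, 22.8, 27.9 and 34.5 CPM in the kainate libraries (log2 change 2.52 ± 0.22, adjusted p = 9.46e-07). All 3 genes were higher in every kainate library than in any saline library. Kainate replicate 2 had the highest Vim and Aspg of the 9 libraries. Synm, the intermediate filament synemin, and Amigo2, an adhesion protein also used as a marker of CA2 and CA3, fell against the rest of the list. Synm went from 49.3–66.8 to 30.6–36.5 CPM (log2 change -0.72 ± 0.11, adjusted p = 8.36e-05), and Amigo2 from 18.3–24.9 to 9.83–19.8 CPM (log2 change -0.69 ± 0.21, adjusted p = 0.0219).

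Genes of astrocyte homeostasis moved in both directions. Of 20 measured, 10 rose and 3 fell, with a median of 0.40, beside 14.3% and 11.8% of all genes. Aqp4, the water channel of astrocyte endfeet, had 361, 382, 402, 320.3 and 271 CPM in the saline libraries and 874, 499.7, 782 and 1148 CPM in the kainate libraries (log2 change 1.25 ± 0.20, adjusted p = 0.000145). Aldh1l1, a folate enzyme used to mark astrocytes, had 58.1, 44, 54.2, 52.4 and 51.8 CPM in the saline libraries and 132, 144, 152 and 166 CPM in the kainate libraries (log2 change 1.51 ± 0.15, adjusted p = 3.26e-06). Kcnj10, the potassium channel Kir4.1, had 46.2, 56.6, 54.4, 56.5 and 54 CPM in the saline libraries and 168, 84.7, 86 and 144 CPM in the kainate libraries (log2 change 1.17 ± 0.19, adjusted p = 0.000227). All kainate values of these 3 genes exceeded all saline values, Aqp4 least in kainate replicate 2 and Kcnj10 least in replicates 2 and 3. The gap junction gene Gjb6 (0.76 ± 0.15) and the growth factor receptor Fgfr3 (0.66 ± 0.13) rose as well. Slc6a11, the astrocytic GABA transporter GAT3, fell from 87.6–101 to 32–67.7 CPM (log2 change -0.80 ± 0.16, adjusted p = 0.0013). Fgf1 fell from 61.3–72.2 to 24–57.6 CPM (-0.54 ± 0.17), with its lowest value of 24 CPM in kainate replicate 2 and a log2 change of -0.32 without it (adjusted p = 0.00761).

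**Figure D2:**
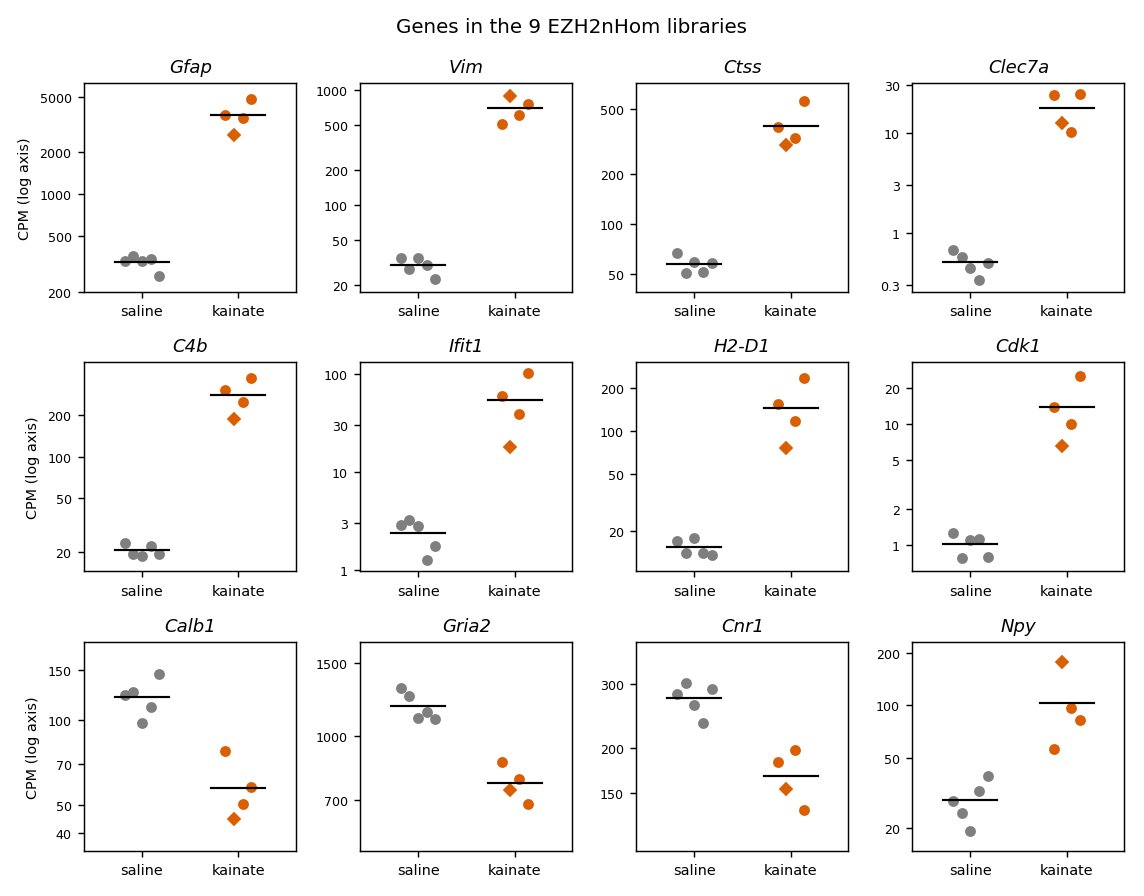
CPM on a log axis in the 5 saline and 4 kainate libraries of EZH2nHom, 1 point per library, with kainate replicate 2 as a diamond and group means as black lines. In all 12 genes drawn the groups did not overlap: astrocyte, microglial, complement, interferon, MHC and cell cycle genes and Npy lay higher after kainate, and Calb1, Gria2 and Cnr1 lower.

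Microglia carry receptors and proteases that mark them in any state, and other genes that mark their activation. Of 20 genes of homeostatic microglia, 15 rose and 0 fell (median 1.42), and of 30 genes of activated microglia, 27 rose and 0 fell (median 2.62). Csf1r, the receptor for the growth factor that microglia need, had 70.5, 77.2, 84.9, 73.5 and 86.5 CPM in the saline libraries and 318, 228, 249 and 438 CPM in the kainate libraries (log2 change 1.97 ± 0.22, adjusted p = 8.41e-06). Ctss, the microglial cathepsin S, had 66.2, 50.3, 58.5, 51.4 and 58.3 CPM in the saline libraries and 386, 302, 330 and 554 CPM in the kainate libraries (log2 change 2.79 ± 0.24, adjusted p = 1.16e-06). Aif1, which encodes the marker protein IBA1, had 4.25, 3.19, 3.88, 3.16 and 3.8 CPM in the saline libraries and 25.2, 10.1, 19.8 and 38 CPM in the kainate libraries (log2 change 2.67 ± 0.36, adjusted p = 4.45e-05). In all 3 the kainate libraries lay above the saline libraries, with kainate replicate 2 the lowest of the 4 and replicate 4 the highest. Clec7a, the beta-glucan receptor of activated microglia, had 0.677, 0.58, 0.444, 0.335 and 0.505 CPM in the saline libraries and 24.1, 12.5, 10.2 and 24.5 CPM in the kainate libraries (log2 change 5.12 ± 0.48, adjusted p = 2.77e-06). Cd52, a surface glycoprotein of leukocytes, had 1.33, 1.41, 1.24, 0.548 and 1.07 CPM in the saline libraries and 27.8, 17.9, 16.8 and 43.7 CPM in the kainate libraries (log2 change 4.57 ± 0.50, adjusted p = 9.98e-06). Trem2, the lipid-sensing receptor, had 7.45, 6.95, 6.64, 7 and 7.31 CPM in the saline libraries and 46.6, 21.7, 34.3 and 72 CPM in the kainate libraries (log2 change 2.63 ± 0.32, adjusted p = 1.96e-05). Its adaptor Tyrobp went from 10.2–12.4 to 53.8–109 CPM (2.69 ± 0.30). The median log2 difference of the homeostatic list from the saline mean was 1.58, 0.68, 1.3 and 1.90 in the 4 kainate libraries, lowest in replicate 2. The activated list had 2.5, 2.31, 2.15 and 3.15, in which replicate 2 was inside the range of the others.

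Markers of blood leukocytes and border macrophages gave fewer calls. Of 22 listed genes, 14 passed the filter on low counts, 5 rose and 1 fell (median 1.23, 0.56 without kainate replicate 2). The other 8 hold the defining markers of T cells, B cells, cytotoxic cells and neutrophils. Together these 8 genes had 15 reads over the 5 saline libraries and 117 over the 4 kainate libraries. The T cell receptor chain gene Cd3e had 2 and 3 reads and the neutrophil gene Ly6g 1 and 4, while Cd8a had 1 and 32 and the granzyme gene Gzmb 1 and 47; these 4 were named after their values were seen. Ptprc (CD45), which microglia share with leukocytes, went from 4.2–9.72 to 27.9–54.1 CPM (log2 change 2.72 ± 0.38, adjusted p = 5.84e-05). Ccr2, the chemokine receptor of inflammatory monocytes, had 0.542, 0.207, 0.355, 0.152 and 0.297 CPM in the saline libraries and 4.32, 0, 1.87 and 8.85 CPM in the kainate libraries (log2 change 3.56 ± 1.01, adjusted p = 0.0146). It had no read in kainate replicate 2, and the other 3 kainate libraries lay above all saline libraries. Ly6c2, a monocyte surface antigen, was at 0.11 CPM in the same library and at 0.924–8.82 CPM in the other kainate libraries, against 0–0.238 CPM in saline; it shares 23.8% of its words with other genes. Itga4, an integrin subunit, fell from 24.5–35 to 10.4–23.4 CPM (log2 change -0.88 ± 0.19, adjusted p = 0.00257). The summed level of the 14 measured genes was 40.03 to 60.1 CPM in saline and 61.6 to 116 CPM after kainate. The part of these cells in the microglial and immune results was not tested.

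Receptors for antibodies and the complement cascade, which tags synapses and debris for removal, rose almost as a whole. All 11 measured genes of the Fc receptor list rose (median 3.50), as did 16 of 21 complement genes (median 2.52), of which 1 fell. The Fc receptor list also holds Cd72, which is not an Fc receptor and had the list's highest log2 change (7.15 ± 0.98). Of the words of Cd72, 38.5% occur in other genes, so its count is uncertain. C4b had 23.3, 19.5, 18.8, 22.4 and 19.5 CPM in the saline libraries and 308, 188, 252 and 377 CPM in the kainate libraries (log2 change 3.76 ± 0.28, adjusted p = 3.83e-07). C1qa, a chain of the initiating complex, had 36, 30.5, 32.9, 35 and 33 CPM in the saline libraries and 244, 261, 202 and 456 CPM in the kainate libraries (log2 change 3.12 ± 0.34, adjusted p = 8.89e-06). Its partners C1qb (3.06 ± 0.31) and C1qc (3.09 ± 0.34) rose as well. All 4 genes kept the groups apart, and C1qa was highest in kainate replicate 4. Fcgr3, a low-affinity IgG receptor, had 12.3, 10.3, 11.6, 9.43 and 10.6 CPM in the saline libraries and 56.5, 98.9, 50.1 and 85 CPM in the kainate libraries (log2 change 2.74 ± 0.24, adjusted p = 9.46e-07). Fcgr4 had 0.163, 0.166, 0.0296, 0.243 and 0.149 CPM in the saline libraries and 7.68, 10.4, 8.41 and 17.5 CPM in the kainate libraries (log2 change 6.17 ± 0.62, adjusted p = 4.29e-06). Fcer1g, the signalling chain shared by these receptors, went from 4.08–5.3 to 21.9–47.6 CPM (2.91 ± 0.37). Itgax (3.77 ± 0.51) and Itgb2 (3.12 ± 0.41), the subunits of complement receptor 4, rose. Cd55, which breaks up complement convertases on the cell's own surface, was the gene of the list that fell, from 7.43–15.5 to 5.16–6.33 CPM (log2 change -0.92 ± 0.21, adjusted p = 0.00315). Its saline values were higher in replicates 1, 3 and 4, the libraries with the highest choroid plexus sums, than in 2 and 5; the part of that tissue was not tested. Cfb, complement factor B, went from 0–0.267 to 1.61–17.6 CPM with 11 saline reads in all. The counts of C4b and Cfb are uncertain, since 48.3% and 75.5% of their words occur in other genes.

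The lysosome and phagocytosis list had 19 of 24 measured genes higher and 0 lower (median 1.05). Grn, progranulin, had 24.7, 30.3, 26.6, 29.5 and 25.4 CPM in the saline libraries and 162, 132, 125 and 227 CPM in the kainate libraries (log2 change 2.56 ± 0.34, adjusted p = 4.48e-05). Laptm5, a lysosomal membrane protein of blood-lineage cells, had 12.3, 15.1, 13.9, 15.7 and 16.6 CPM in the saline libraries and 72.2, 61.6, 64.1 and 110.4 CPM in the kainate libraries (log2 change 2.39 ± 0.30, adjusted p = 2.63e-05). Axl, a receptor for dying cells, had 37.2, 37, 41.7, 39.5 and 39.3 CPM in the saline libraries and 94.7, 88.8, 85.5 and 136 CPM in the kainate libraries (log2 change 1.38 ± 0.18, adjusted p = 4.01e-05). None of the 3 overlapped between the groups. Of 18 apolipoprotein and lipid genes, 12 rose and 1 fell (median 1.17). Abca1, which exports cholesterol from cells, went from 58.1–78.1 to 175–274 CPM (log2 change 1.68 ± 0.24, adjusted p = 6.04e-05), and Plin2, a coat protein of lipid droplets, from 5.22–6.9 to 21.6–47.3 CPM (log2 change 2.42 ± 0.44, adjusted p = 0.000602). Msr1, a scavenger receptor, was at 60.9 CPM in kainate replicate 2 and at 2.82–7 CPM in the others, against 0.248–0.386 CPM in saline. Cd36, another scavenger receptor, fell (log2 change -0.99 ± 0.33, adjusted p = 0.0305) and did not pass without kainate replicate 2 (adjusted p = 0.0599).

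Chemokines and their receptors gave 14 rises and 1 fall among 18 measured genes (median 1.91, which stays the same when Ccl5 is set at its lower bound of 3 reads over the saline group). The fit to the 9 EZH2nHom libraries alone called 9 of them higher. Ccl2, which draws monocytes, had 0, 0, 0.118, 0 and 0.0595 CPM in the saline libraries and 5.4, 8.81, 2.54 and 14.4 CPM in the kainate libraries, with 6 saline reads in all. Ccl5, a T cell attractant, had no read in any saline library and 1.46, 1.39, 1.22 and 4.22 CPM in the kainate libraries. Ccl12, a mouse relative of Ccl2, had 0.298, 0.29, 0.326, 0.152 and 0.0595 CPM in the saline libraries and 5.65, 11, 5.47 and 14.4 CPM in the kainate libraries (log2 change 5.32 ± 0.66, adjusted p = 2.29e-05). Cxcl10, the interferon-induced ligand of CXCR3, had 0.271, 0.331, 0.0593, 0.365 and 0.297 CPM in the saline libraries and 28, 11.4, 17.1 and 77.6 CPM in the kainate libraries (log2 change 6.98 ± 0.96, adjusted p = 6.92e-05). No kainate library of Ccl5 or Ccl12 came down to the saline range, and Ccl2 and Cxcl10 were picked among genes without overlap. Ccl2 and Cxcl10 were highest in kainate replicate 4. Cxcl16, a membrane-bound chemokine, rose by 3.55 ± 0.46. Cxcl12, which is made by neurons and vessels and guides precursor cells, was the gene that fell, from 19.3–25.7 to 9.58–13.6 CPM (log2 change -1.0 ± 0.15, adjusted p = 8.29e-05).

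Of 28 measured cytokine and cytokine receptor genes, 20 rose and 1 fell (median 1.67). Tnf had 0.0812, 0, 0, 0 and 0 CPM in the saline libraries and 0.954, 7.08, 0.647 and 1.99 CPM in the kainate libraries, with 3 saline reads in all and its highest value in kainate replicate 2. Its receptor gene Tnfrsf1a had 3.76, 3.68, 4.38, 3.92 and 3.15 CPM in the saline libraries and 14.5, 26.4, 14.2 and 25.4 CPM in the kainate libraries (log2 change 2.41 ± 0.34, adjusted p = 6.04e-05). Il6st, the gp130 chain used by interleukin 6, CNTF and oncostatin M, had 120.3, 118, 125, 113 and 95.4 CPM in the saline libraries and 187, 178, 164 and 194 CPM in the kainate libraries (log2 change 0.66 ± 0.10, adjusted p = 7.83e-05). Both receptor genes kept the groups apart. Cntf, an astrocytic ligand of that chain, rose from 0.892–1.52 to 4.48–10.2 CPM (log2 change 2.58 ± 0.28, adjusted p = 8.41e-06), although 78.4% of its words occur in other genes. Ifngr1 (1.16 ± 0.14), Il10ra (2.28 ± 0.28) and Tnfrsf1b (2.21 ± 0.34) rose, and Tgfb2 fell from 27.7–44.5 to 23–24.9 CPM (log2 change -0.52 ± 0.12, adjusted p = 0.00424). Sensors of microbial and cell debris followed the same direction, with 19 of 22 Toll-like receptor and NF-kB genes higher and 0 lower (median 1.68). Tlr2 went from 0.331–1.71 to 11.7–33.6 CPM (log2 change 4.12 ± 0.55, adjusted p = 4.79e-05), Tlr7 from 2.56–4.06 to 12.1–39.5 CPM (2.80 ± 0.37) and the adaptor Myd88 from 2.93–3.71 to 8.61–13.1 CPM (1.63 ± 0.24).

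Genes induced by type I interferon rose without exception among those measured. All 31 of 31 passed, with a median of 3.90, and for each of them every kainate library lay above every saline library. Over all genes 14.3% rose, and 9.93% kept the groups apart in this direction. Interferon signals through JAK kinases to a complex of STAT proteins and IRF9, which binds an element with the core GAAANNGAAA in front of its target genes, and STAT dimers bind TTCNNNGAA. The upstream stretches of 5 genes described in these paragraphs are printed to show such letters, with the matches in capitals. Each stretch of 80 bases lies upstream of the RefSeq start in GRCm38.p6, read 5′ to 3′ on the gene's strand. In Isg15, 3 matches of the first pattern overlap and run together; Socs3 shows the second pattern. Gfap, Osmr and Vim were searched for the second pattern as well, and their 250 bases upstream held no match.
Isg15 (chr4:156200840-156200919, minus strand): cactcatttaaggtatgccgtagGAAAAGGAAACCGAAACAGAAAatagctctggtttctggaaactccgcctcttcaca
Ifit1 (chr19:34640769-34640848, plus strand): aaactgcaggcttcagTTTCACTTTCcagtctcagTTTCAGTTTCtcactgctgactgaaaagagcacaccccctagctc
Gbp2 (chr3:142620569-142620648, plus strand): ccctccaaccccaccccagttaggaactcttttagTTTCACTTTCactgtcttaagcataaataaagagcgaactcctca
Cxcl10 (chr5:92349058-92349137, minus strand): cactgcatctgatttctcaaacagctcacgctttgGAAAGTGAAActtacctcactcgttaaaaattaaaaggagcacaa
Socs3 (chr11:117969477-117969556, minus strand): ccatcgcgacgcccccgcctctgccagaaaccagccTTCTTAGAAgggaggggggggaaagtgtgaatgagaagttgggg
Promoters were found by symbol for 21 of 31 genes of the type I interferon list and 9 of 13 of the interferon-induced GTPase list. Windows ran from 250 bases before to 50 after each start and were searched on both strands. GAAANNGAAA was present in 13 of 26 promoters of the interferon list (50%) and in 9 of 10 of the GTPase list (90%). The share was 3.44% of all 32851 promoters of the table, 5.44% for genes that rose here, 2.72% for genes that fell and 2.65% for the rest. TTCNNNGAA was present in 8.3% of all promoters, 7.22% for genes that rose, 7.41% for genes that fell and 6.71% for the rest. Both patterns can share bases. A match describes letters, not a bound site.

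Isg15, a ubiquitin-like protein, had 0.352, 0.166, 0.355, 0.152 and 0.297 CPM in the saline libraries and 12.8, 2.53, 11.8 and 34.6 CPM in the kainate libraries (log2 change 5.82 ± 0.70, adjusted p = 2.06e-05). Ifit1, which binds foreign RNA, had 2.84, 3.19, 2.79, 1.25 and 1.72 CPM in the saline libraries and 59.5, 18, 38.4 and 101 CPM in the kainate libraries (log2 change 4.53 ± 0.53, adjusted p = 1.82e-05). Irf7, the transcription factor that amplifies the response, had 1.16, 1.24, 1.27, 0.821 and 1.25 CPM in the saline libraries and 44.3, 10.3, 32.4 and 111 CPM in the kainate libraries (log2 change 5.42 ± 0.64, adjusted p = 2.06e-05). In all 3, kainate replicate 2 was the lowest of the kainate libraries and replicate 4 the highest, and the groups did not overlap. Oasl2 went from 1.95–3.15 to 14.2–141 CPM (4.96 ± 0.58) and Xaf1 from 1.33–2.57 to 8.48–30.6 CPM (3.34 ± 0.36). Outside the list, Oas1g and Ifi206 had 5 and 2 saline reads in all and reached 0.0734–7.59 CPM and 0.11–6.56 CPM; 55% and 36.4% of their words occur in other genes. The summed level of the list was 106 to 129.6 CPM in saline and 1095, 387, 750.3 and 1925 CPM in the kainate libraries, lowest in replicate 2. Without that library the median was 4.23, with all 31 genes still called. Interferon-induced GTPases, which attack compartments holding microbes, had 11 of 13 genes higher and 0 lower (median 2.93). Gbp2 had 5.04, 4.93, 3.76, 3.19 and 2.62 CPM in the saline libraries and 55, 46, 43.8 and 109 CPM in the kainate libraries (log2 change 4.02 ± 0.42, adjusted p = 6.7e-06). Gbp3 (3.82 ± 0.40), Irgm1 (3.28 ± 0.39), Gbp5 (3.73 ± 0.47) and Iigp1 (3.37 ± 0.48) rose as well.

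Antigen presentation rose in its class I and class II arms. All 16 class I genes measured rose (median 3.08), and of 8 class II genes 7 rose (median 2.71). H2-D1, a class I heavy chain, had 16.9, 14, 17.9, 13.9 and 13.5 CPM in the saline libraries and 154, 76, 118 and 234 CPM in the kainate libraries (log2 change 3.25 ± 0.32, adjusted p = 4.26e-06). H2-K1, another, had 12.6, 10.6, 10.8, 12.3 and 8.56 CPM in the saline libraries and 119, 46.5, 74.9 and 188 CPM in the kainate libraries (log2 change 3.29 ± 0.38, adjusted p = 1.73e-05). Psmb8, a subunit of the immunoproteasome that cuts the presented peptides, had 1.62, 2.03, 1.87, 1.76 and 1.52 CPM in the saline libraries and 18.3, 12, 16.1 and 40.8 CPM in the kainate libraries (log2 change 3.63 ± 0.40, adjusted p = 7.92e-06). Each was higher in all kainate libraries. Tapbp, the loading chaperone tapasin, went from 7.82–12.8 to 30.1–55.9 CPM (1.84 ± 0.22). The class II chains differed by library. H2-Aa had 0.867, 0.372, 0.77, 0.426 and 0.624 CPM in the saline libraries and 7.03, 0.404, 5.38 and 14 CPM in the kainate libraries (log2 change 3.43 ± 0.85, adjusted p = 0.00603). Cd74, the invariant chain, had 1.76, 1.66, 1.48, 1.4 and 1.19 CPM in the saline libraries and 11.1, 1.5, 8.13 and 19.2 CPM in the kainate libraries (log2 change 2.74 ± 0.73, adjusted p = 0.0102). H2-Eb1 had 0.433, 0.621, 0.711, 0.821 and 0.565 CPM in the saline libraries and 4.04, 0.22, 4.11 and 7.74 CPM in the kainate libraries (log2 change 2.68 ± 0.76, adjusted p = 0.0149). For these 3 genes kainate replicate 2 lay within or below the saline range and the other 3 kainate libraries above it. The list's median difference from the saline mean was 0.02 in replicate 2 and 2.49, 2.46 and 3.49 in the others. H2-Ab1 went from 0.268–0.639 to 1.73–12.5 CPM (3.78 ± 0.75), H2-Oa from 0.149–0.538 to 0.257–1.96 CPM (2.12 ± 0.52) and H2-DMb1 from 0.802–1.79 to 3.9–7.79 CPM (2.12 ± 0.36). Ciita, the master regulator of class II genes, had 11 saline reads in all and 0.804, 0.22, 1.62 and 1.82 CPM after kainate. H2-DMa did not pass (log2 change 0.36 ± 0.17, adjusted p = 0.131). MHC genes are close relatives: 26.9% of the words of H2-D1, 22.8% of H2-K1, 26.9% of Tapbp and 31.4% of H2-DMb1 occur elsewhere, and the counts of H2-Q6 (51.8%) and H2-Q4 (53%) are uncertain for the same reason.

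Core genes of JAK-STAT signalling had 12 of 23 higher and 0 lower (median 1.05). Stat2, a partner of IRF9, had 11.6, 13.9, 12.8, 10.5 and 12.7 CPM in the saline libraries and 35.1, 24.5, 26.1 and 50.6 CPM in the kainate libraries (log2 change 1.47 ± 0.22, adjusted p = 8.63e-05). Stat3, the factor used downstream of gp130, had 37.3, 37.1, 38.2, 39.2 and 39.8 CPM in the saline libraries and 82.2, 238, 83.8 and 103 CPM in the kainate libraries (log2 change 1.72 ± 0.28, adjusted p = 0.000224). Socs3, a feedback inhibitor that STAT3 induces, had 1.22, 0.911, 1.6, 1.64 and 1.46 CPM in the saline libraries and 9.42, 109.6, 12.2 and 25.4 CPM in the kainate libraries (log2 change 4.83 ± 0.80, adjusted p = 0.000325). The groups stayed apart in all 3 genes, with the libraries in different orders: kainate replicate 2 had the lowest Stat2 and the highest Stat3 and Socs3 of the 4. The kinase gene Pim1 showed the same library on top, at 37.1 CPM against 2.84–6.04 CPM in the other kainate libraries and 0.994–1.43 CPM in saline (log2 change 3.25 ± 0.58, adjusted p = 0.000469; log2 change 1.64 without replicate 2). Irf9 rose by 2.33 ± 0.29 and the phosphatase gene Ptpn6 by 2.37 ± 0.42.

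**Figure D3:**
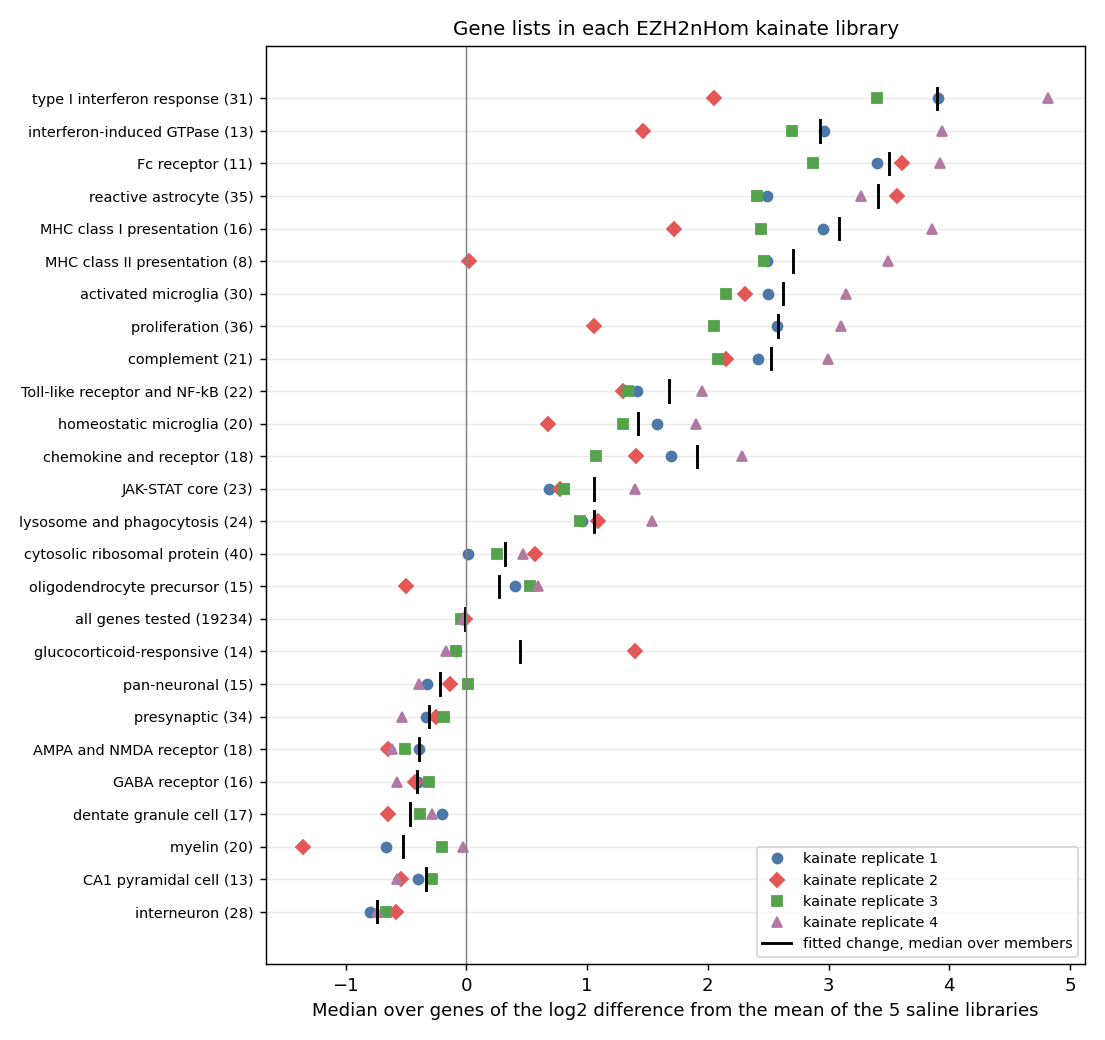
Each symbol is the median over the members of a gene list (number measured in brackets) of the log2 difference of 1 EZH2nHom kainate library from the mean of the 5 saline libraries, and the black mark is the median fitted log2 change. Interferon, MHC class II, proliferation, oligodendrocyte precursor and myelin lists were lowest and the glucocorticoid-responsive list highest in kainate replicate 2 (red diamonds), while the interneuron list lay between -0.80 and -0.59 in all 4 libraries.

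Cell cycle genes rose in 32 of 36 cases and fell in 0 (median 2.58). Cdk1, the mitotic kinase, had 1.25, 0.786, 1.1, 1.13 and 0.802 CPM in the saline libraries and 13.9, 6.57, 9.95 and 25 CPM in the kainate libraries (log2 change 3.76 ± 0.46, adjusted p = 2e-05). Nusap1, a spindle protein, had 1.81, 1.12, 1.99, 1.28 and 1.31 CPM in the saline libraries and 13.5, 5.76, 9.4 and 20.4 CPM in the kainate libraries (log2 change 3.02 ± 0.37, adjusted p = 1.87e-05). Foxm1, the transcription factor of mitotic genes, had 1.22, 0.704, 0.859, 1 and 1.16 CPM in the saline libraries and 6.81, 3.89, 3.76 and 9.52 CPM in the kainate libraries (log2 change 2.59 ± 0.34, adjusted p = 3.87e-05). No kainate value of these genes reached down to a saline value, and replicate 4 was the highest in each. Bub1 (3.69 ± 0.46) and Ccnb2 (3.39 ± 0.43) rose likewise, and Cdc20 (3.80 ± 0.47) shares 26.7% of its words with other genes. The list's median difference from the saline mean was 2.57, 1.05, 2.05 and 3.10 in the 4 kainate libraries. These transcript levels do not say whether cells divided, or which cells did.

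Genes of cell death rose in part. Of 26 apoptosis and p53 genes, 15 rose and 0 fell (median 0.64), and of 12 necroptosis and pyroptosis genes, 11 rose (median 2.19). Cdkn1a, the p53 target that halts the cell cycle, had 2.11, 1.37, 2.34, 2.4 and 2.35 CPM in the saline libraries and 5.75, 42.3, 8.82 and 9.99 CPM in the kainate libraries (log2 change 2.97 ± 0.50, adjusted p = 0.000302). Gadd45a had 2.6, 1.41, 2.19, 1.34 and 1.87 CPM in the saline libraries and 3.11, 12.2, 5.15 and 5.1 CPM in the kainate libraries (log2 change 1.75 ± 0.31, adjusted p = 0.000458). The kainate libraries were above the saline libraries in both genes, and replicate 2 was the highest in each; without it the log2 change of Cdkn1a was 1.94 (adjusted p = 0.00065). Eda2r (1.91 ± 0.32), Fas (2.27 ± 0.39) and Pmaip1 (2.89 ± 0.47), p53 targets that promote cell death, rose. Zbp1, a sensor of left-handed nucleic acids that starts necroptosis, had 0.108, 0.0828, 0.0593, 0.0913 and 0.149 CPM in the saline libraries and 7.06, 2.46, 4.69 and 16.1 CPM in the kainate libraries (log2 change 6.21 ± 0.78, adjusted p = 2.6e-05). Gsdmd, the pore protein of pyroptosis, rose from 0.981–1.93 to 3.93–11.9 CPM (log2 change 2.41 ± 0.33, adjusted p = 5.1e-05), Casp4 from 0.207–0.487 to 1.89–4.95 CPM (3.41 ± 0.46) and Nlrp3 from 0.542–0.862 to 1.65–4.95 CPM (2.02 ± 0.35). Il1b, the cytokine that this pathway releases, went from 0.0542–0.166 to 0.393–1.61 CPM (3.35 ± 0.56).

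Among matrix and proteoglycan genes 17 of 31 rose and 1 fell (median 0.79), and 11 rose without kainate replicate 2 (median 0.45). Spp1, osteopontin, had 4.25, 6.58, 6.43, 2.83 and 2.17 CPM in the saline libraries and 94.1, 738, 49.3 and 240.3 CPM in the kainate libraries (log2 change 5.99 ± 1.26, adjusted p = 0.00253). Sparc, a matrix protein of microglia and vessels, had 187, 185, 199, 174 and 216 CPM in the saline libraries and 561, 522, 477 and 717 CPM in the kainate libraries (log2 change 1.56 ± 0.20, adjusted p = 2.57e-05). Has2, a hyaluronan synthase, had 0.921, 2.03, 1.01, 1.22 and 1.52 CPM in the saline libraries and 4.17, 4.44, 4.39 and 5.74 CPM in the kainate libraries (log2 change 1.82 ± 0.36, adjusted p = 0.00113). Spp1 varied over the kainate libraries far more than Sparc or Has2, with its highest value in replicate 2 and an adjusted p of 0.00715 without it, and all kainate values of the 3 genes were above the saline values. Acan, the aggrecan core protein of perineuronal nets, rose from 3.49–4.7 to 6.24–15.5 CPM (1.32 ± 0.24), and Lamb1, a laminin chain, fell from 37.5–49 to 25.6–34.3 CPM (-0.49 ± 0.11). Of 24 measured protease and inhibitor genes 18 rose and 1 fell. Plat, tissue plasminogen activator, had 42.4, 39.7, 44.1, 39.5 and 45.3 CPM in the saline libraries and 56.9, 91.2, 83.3 and 68.3 CPM in the kainate libraries (log2 change 0.83 ± 0.12, adjusted p = 9.61e-05). Plau, urokinase, went from 1.66–2.63 to 4.88–10.2 CPM (1.73 ± 0.31), and Adamts4, an aggrecanase, fell from 34.5–48.6 to 12–28.7 CPM (log2 change -0.81 ± 0.19, adjusted p = 0.00401).

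Vascular lists changed little beside these. Over all genes 14.3% rose and 11.8% fell. Of 21 endothelial and barrier genes 6 rose and 1 fell (median 0.36, 0.23 without kainate replicate 2), and of 14 pericyte and meningeal genes 1 rose and 2 fell (median 0.02). Icam1, an adhesion molecule for leukocytes, had 2.3, 1.41, 2.22, 1.95 and 1.43 CPM in the saline libraries and 10.4, 23.2, 7.02 and 17.5 CPM in the kainate libraries (log2 change 2.96 ± 0.40, adjusted p = 4.07e-05). Vcam1, another, went from 29.2–43.1 to 46.5–124 CPM (log2 change 1.10 ± 0.26, adjusted p = 0.00493). Ocln, the tight junction protein occludin, fell from 11.9–25 to 11.1–14.3 CPM (log2 change -0.67 ± 0.19, adjusted p = 0.014). Both adhesion genes separated the groups, and Ocln overlapped, with its saline values higher in replicates 1, 3 and 4 (21.9–25 CPM) than in 2 and 5 (11.9–14.7 CPM). Vwf rose (log2 change 1.52 ± 0.48, adjusted p = 0.0258) but did not pass without kainate replicate 2 (adjusted p = 0.103). Myh11, smooth muscle myosin, fell from 4.52–9.34 to 2.61–4.33 CPM (log2 change -0.99 ± 0.24, adjusted p = 0.00504). Igf2, which is made by choroid plexus and meninges in the adult brain, fell from 78.4, 42.2, 93.8, 103 and 21.2 CPM to 23.7, 16.2, 21.5 and 18.6 CPM (log2 change -1.76 ± 0.40, adjusted p = 0.00375). Its 3 highest saline values are in replicates 1, 3 and 4, the libraries with the highest choroid plexus sums; the part of that tissue in the fall was not tested, and 63.1% of its words occur in other genes. None of the 10 choroid plexus genes passed, for example Kl (log2 change -2.22 ± 0.86, adjusted p = 0.0686) and Otx2 (log2 change -2.92 ± 1.25, adjusted p = 0.0949).

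Metal, iron and oxidative stress genes rose in 17 of 26 cases and fell in 0 (median 0.70); without kainate replicate 2, 17 rose and 3 fell. Prdx6, an astrocytic peroxiredoxin, had 141, 126.2, 132, 122 and 119.5 CPM in the saline libraries and 419, 274, 449.9 and 592 CPM in the kainate libraries (log2 change 1.76 ± 0.18, adjusted p = 5.31e-06). Cybb, the catalytic subunit of the phagocyte oxidase, had 0.514, 0.414, 0.444, 0.304 and 0.624 CPM in the saline libraries and 11.1, 8.29, 5.5 and 22 CPM in the kainate libraries (log2 change 4.65 ± 0.68, adjusted p = 0.000101). Gpx1, a glutathione peroxidase, had 29.6, 29.4, 34.8, 35.9 and 34.4 CPM in the saline libraries and 68, 89.1, 53.8 and 88.6 CPM in the kainate libraries (log2 change 1.19 ± 0.20, adjusted p = 0.000265). All 3 were higher in every kainate library. Mt1, a metallothionein, was at 544 CPM in kainate replicate 2 and at 117–249 CPM in the other kainate libraries, against 66.2–127 CPM in saline (log2 change 1.68 ± 0.32, adjusted p = 0.000856; log2 change 1.08 without replicate 2). Heat shock and endoplasmic reticulum stress genes mostly did not pass: 4 of 19 rose and 2 fell (median 0.05), beside 14.3% and 11.8% of all genes. In the fit that leaves out kainate replicate 2, 4 rose and 5 fell, and the fit to the 9 EZH2nHom libraries alone called 0 lower. Hspb8, a small heat shock protein, had 20.6, 15.5, 19.9, 21.5 and 11.4 CPM in the saline libraries and 42.8, 52.6, 43.3 and 53 CPM in the kainate libraries (log2 change 1.43 ± 0.16, adjusted p = 7.45e-06). Its partner Bag3 rose by 1.48 ± 0.25, and Cryab by 0.61 ± 0.21 with an adjusted p of 0.227 without kainate replicate 2.

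Among neuronal genes, falls prevailed and were small. Of 15 pan-neuronal genes 4 fell and 0 rose, against 11.8% of all genes that fell, with a median of -0.22. Snap25, a protein of the vesicle fusion machinery, had 1656, 1718, 1419, 1437 and 1462 CPM in the saline libraries and 943, 1289, 1158 and 762 CPM in the kainate libraries (log2 change -0.57 ± 0.16, adjusted p = 0.0137). Thy1, a neuronal surface glycoprotein, had 342, 394, 339, 327 and 408 CPM in the saline libraries and 258, 205, 274 and 219.7 CPM in the kainate libraries (log2 change -0.60 ± 0.12, adjusted p = 0.00156). Map2, the dendritic microtubule protein, had 2194, 2269, 2206, 2029 and 2341 CPM in the saline libraries and 1994, 2003, 1867 and 1584 CPM in the kainate libraries (log2 change -0.25 ± 0.09, adjusted p = 0.0395). In these genes every kainate library lay below every saline library, although Map2 was close to the threshold and Snap25 did not pass without kainate replicate 1 or 4 (log2 changes -0.49 and -0.45). Eno2, the neuronal enolase, did not pass (log2 change -0.34 ± 0.13, adjusted p = 0.0719). In reads lost, among called genes without overlap, the falls were led by abundant transcripts. The mitochondrial gene mt-Cytb had 4649, 4703, 3842, 3590 and 3771 CPM in the saline libraries and 3018, 2791, 2466 and 2567 CPM in the kainate libraries (log2 change -0.60 ± 0.10, adjusted p = 0.000319). Calm3, a calmodulin gene, went from 1517–1685 to 786–1241 CPM (-0.66 ± 0.15). The calcineurin subunit gene Ppp3ca (-0.60 ± 0.16) and the kinesin gene Kif5a (-0.45 ± 0.12) fell as well. Mean saline levels of mt-Cytb, Calm3, Ppp3ca and Kif5a were 4111, 1599, 1675 and 1845 CPM in EZH2nHom. In WT saline they were 2166, 1113, 1249 and 1988 CPM, and this difference of genotypes was not tested.

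Markers of the principal cell fields fell in a minority of cases, beside 11.8% of all genes that fell and 14.3% that rose. In the dentate granule cell list 5 of 17 fell and 0 rose (median -0.47), in the CA1 list 4 of 13 fell and 0 rose (median -0.34), and in the CA3 and CA2 list 6 of 18 fell and 2 rose (median -0.36). In the fit to the 9 EZH2nHom libraries alone 3 of the dentate genes fell, and 4 of the CA3 and CA2 genes fell and 0 rose. Calb1, the calcium buffer calbindin of granule cells and CA1, had 123, 125.8, 98, 111 and 146 CPM in the saline libraries and 77.5, 44.8, 50.3 and 57.8 CPM in the kainate libraries (log2 change -1.07 ± 0.14, adjusted p = 4.25e-05). Stxbp6 had 98.1, 98.2, 69.1, 91.9 and 82.2 CPM in the saline libraries and 53.6, 40.03, 45.9 and 51.5 CPM in the kainate libraries (log2 change -0.88 ± 0.13, adjusted p = 0.000112). Fibcd1, a CA1 marker, had 74.4, 93.1, 72, 89.1 and 76.7 CPM in the saline libraries and 39.9, 19.9, 37 and 27.1 CPM in the kainate libraries (log2 change -1.39 ± 0.33, adjusted p = 0.00466). The groups stayed apart in each. Pcp4, a calmodulin regulator of CA2 and granule cells, had 114, 98, 109, 97.1 and 100.2 CPM in the saline libraries and 59.8, 50.8, 60.3 and 67.8 CPM in the kainate libraries (log2 change -0.80 ± 0.09, adjusted p = 8.4e-06). Cpne4, a marker of CA3, went from 80.3–90.8 to 34.6–54 CPM (-0.87 ± 0.22) and Nectin3 from 45–52.9 to 31.2–38.8 CPM (-0.47 ± 0.11). Dsp, desmoplakin, showed a wide spread, with 39.2, 9.47, 7.39 and 24.5 CPM after kainate against 26.6–59 CPM (log2 change -1.21 ± 0.37, adjusted p = 0.0206), and did not pass without kainate replicate 2 (adjusted p = 0.056).

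Among the neuronal lists the largest share of falls was in interneurons, the GABA-releasing cells that restrain the principal cells. Of 28 measured markers 19 fell, 2 rose and 7 did not pass, with a median of -0.74, and 17 were lower in every kainate library than in any saline library. Without kainate replicate 2, 21 fell. Over all genes 11.8% fell, and 9.23% were lower in every kainate library than in any saline library. Adarb2, a marker of interneurons from the caudal ganglionic eminence, had 44.9, 48.3, 39, 42.6 and 43.7 CPM in the saline libraries and 28.7, 21.5, 20.8 and 21.9 CPM in the kainate libraries (log2 change -0.91 ± 0.13, adjusted p = 5.2e-05). Erbb4, the neuregulin receptor, had 145, 148, 146, 122 and 167 CPM in the saline libraries and 89.8, 83.3, 84.9 and 64.3 CPM in the kainate libraries (log2 change -0.85 ± 0.13, adjusted p = 9.43e-05). Cnr1, the cannabinoid receptor of cholecystokinin cells, had 281, 303, 263, 234 and 292 CPM in the saline libraries and 182, 154, 198 and 135 CPM in the kainate libraries (log2 change -0.72 ± 0.12, adjusted p = 0.000209). All 3 fell without overlap. Sst, somatostatin, had 93.8, 108, 88, 120.2 and 143 CPM in the saline libraries and 55, 101, 74.9 and 65.4 CPM in the kainate libraries (log2 change -0.58 ± 0.15, adjusted p = 0.00799). Its value in kainate replicate 2 lay inside the saline range and the other 3 below it. Cort, the related peptide cortistatin, fell from 1.68, 1.66, 1.16, 2.71 and 3.86 CPM to 0.402, 0.587, 0.139 and 0.264 CPM (log2 change -2.70 ± 0.44, adjusted p = 0.000209). Nxph1 fell (-0.81 ± 0.16). The transcription factor Sp8 had 2.33, 0.994, 3.08, 3.16 and 1.07 CPM in the saline libraries and 0.427, 0.514, 0.531 and 0.762 CPM in the kainate libraries (log2 change -1.93 ± 0.61, adjusted p = 0.0245). Its saline values were high in replicates 1, 3 and 4, as the choroid plexus sums were. Sp8 was picked among genes without overlap, and the part of that tissue was not tested. Dlx1as, an RNA antisense to the interneuron factor gene Dlx1, fell from 2.57–4.9 to 0.183–1.71 CPM (log2 change -1.64 ± 0.37, adjusted p = 0.00321); the counting is not stated to use strand, so its reads and those of Dlx1 cannot be told apart.

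Npy and Maf rose against this list. Npy, neuropeptide Y, had 28.5, 24.1, 19.1, 32.3 and 39.3 CPM in the saline libraries and 56, 178, 97 and 82.1 CPM in the kainate libraries (log2 change 1.85 ± 0.29, adjusted p = 0.000174), with the highest value in kainate replicate 2. Maf, a factor of medial interneurons and of macrophages, rose by 0.45 ± 0.15. Of 12 mossy cell and hilus genes 3 fell and 1 rose; Calb2, calretinin, had 30.6, 36.2, 44, 40.7 and 41.5 CPM in the saline libraries and 14.2, 11.5, 23.3 and 23 CPM in the kainate libraries (log2 change -1.10 ± 0.26, adjusted p = 0.00453). Of 9 Cajal-Retzius genes 3 fell and 1 rose (1 and 1 in the fit to the 9 libraries alone), among them Gmnc, which fell from 1.66–6.66 to 0.0734–2.56 CPM (-1.89 ± 0.49) and had its 3 highest saline values in replicates 1, 3 and 4 as well. Among 23 neuropeptides 5 rose and 4 fell, against 3 and 5 without kainate replicate 2. For the lists of this paragraph, the shares over all genes were 14.3% higher and 11.8% lower. Gal, galanin, had 0.0812, 0.0828, 0.178, 0.243 and 0.149 CPM in the saline libraries and 3.14, 14.9, 1.96 and 2.37 CPM in the kainate libraries (log2 change 5.19 ± 0.98, adjusted p = 0.000811). Penk, proenkephalin, had 16.1, 18, 15.7, 18.2 and 51 CPM in the saline libraries and 51, 149, 99.6 and 43.3 CPM in the kainate libraries (log2 change 1.85 ± 0.42, adjusted p = 0.00383). Its highest saline value, in replicate 5, equalled or passed 2 of the kainate values. Cck went from 79.7–117 to 54.8–71.4 CPM (log2 change -0.66 ± 0.17, adjusted p = 0.00698) and Nts, neurotensin, from 8.28–13.1 to 3.46–7.06 CPM (log2 change -0.99 ± 0.24, adjusted p = 0.00558). In the neurogenesis list 4 of 18 rose and 3 fell, against 2 and 3 in the fit to the 9 libraries alone. Neurod1 fell from 18–25.9 to 8.33–11.5 CPM (log2 change -1.09 ± 0.18, adjusted p = 0.000289) and Dcx, the marker of migrating neuroblasts, from 21.6–26.9 to 14.8–21.6 CPM (log2 change -0.38 ± 0.11, adjusted p = 0.0181), while Nes, nestin, which reactive astrocytes also express, rose (log2 change 2.01 ± 0.49, adjusted p = 0.00545; log2 change 1.32, adjusted p = 0.033 without kainate replicate 2, which stood at 129 CPM against 34–39.4 CPM in the other kainate libraries).

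Receptors for the injected agent and for glutamate in general moved down where they moved. Of 7 kainate receptor genes 3 fell and 0 rose. Grik1 had 21.7, 23, 24.4, 20.6 and 23.6 CPM in the saline libraries and 17, 17.5, 15.5 and 13.8 CPM in the kainate libraries (log2 change -0.51 ± 0.10, adjusted p = 0.0013). Grik2, the subunit most tied to kainate seizures, had 110, 119.8, 89.7, 104 and 115 CPM in the saline libraries and 90.0, 86.2, 75.9 and 80.7 CPM in the kainate libraries (log2 change -0.37 ± 0.09, adjusted p = 0.00521). Neto1, an auxiliary subunit, had 116, 137, 111, 108 and 128 CPM in the saline libraries and 95.8, 105, 85.5 and 74.8 CPM in the kainate libraries (log2 change -0.41 ± 0.14, adjusted p = 0.034). Grik2 values met at the margin and the other 2 genes did not overlap. Grik3 (-0.33 ± 0.18), Grik4 (-0.16 ± 0.15), Grik5 (0.16 ± 0.18) and Neto2 (-0.08 ± 0.11) did not pass. Of 18 AMPA and NMDA receptor genes 8 fell and 0 rose (median -0.39). Gria2, the subunit that limits calcium entry, had 1304, 1252, 1106, 1142 and 1098 CPM in the saline libraries and 863, 737, 787 and 683 CPM in the kainate libraries (log2 change -0.62 ± 0.11, adjusted p = 0.000311). Gria1 went from 777–965 to 406–644 CPM (-0.70 ± 0.16), Gria3 from 167–235 to 95.1–145 CPM (-0.70 ± 0.16) and Gria4 from 77.1–99.3 to 53.1–74.6 CPM (-0.50 ± 0.10). Cacng3, an AMPA receptor trafficking subunit, fell (log2 change -0.92 ± 0.17, adjusted p = 0.000714). Of 7 metabotropic receptor genes 3 fell, among them Grm5 (-0.60 ± 0.10) and Grm8 (-0.60 ± 0.18). Grm2 (0.25 ± 0.18), Grm3 (-0.24 ± 0.14), Grm4 (0.18 ± 0.22) and Grm7 (-0.26 ± 0.12) did not pass.

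Inhibitory receptors showed the same direction: 9 of 16 GABA receptor genes fell, 0 rose and all 16 had a log2 change under 0 (-1.01 to -0.23). Gabrd, the extrasynaptic delta subunit of granule cells, had 16, 17.6, 15.3, 17.9 and 19.1 CPM in the saline libraries and 8.06, 6.5, 11.2 and 8.32 CPM in the kainate libraries (log2 change -1.01 ± 0.19, adjusted p = 0.000763). Gabbr1, of the metabotropic GABA-B receptor, had 588, 637, 603, 612 and 682 CPM in the saline libraries and 457, 420.3, 525 and 458 CPM in the kainate libraries (log2 change -0.42 ± 0.09, adjusted p = 0.00262). In both genes the groups did not overlap. Of 36 potassium channel genes 12 fell and 1 rose (median -0.33). Kcnip2, a partner of A-type channels, went from 62.2–75.2 to 21.5–41.8 CPM (log2 change -0.95 ± 0.23, adjusted p = 0.00467), Kcnv1 from 42.2–77.2 to 22.6–36.3 CPM (-0.92 ± 0.20) and Kcng3 from 5.47–6.13 to 1.76–3.67 CPM (-1.05 ± 0.21), while Kcnip3, also the repressor DREAM, rose from 75.4–91.1 to 86.3–128 CPM (0.44 ± 0.11). Of 31 HCN, sodium and calcium channel genes 9 fell and 1 rose. Scn3b, a sodium channel beta subunit, had 219.7, 239, 189.8, 205 and 211 CPM in the saline libraries and 120.4, 79.6, 83.1 and 89.6 CPM in the kainate libraries (log2 change -1.19 ± 0.20, adjusted p = 0.000317). Scn2b went from 284–303 to 93.7–216 CPM (-0.78 ± 0.17) and Itpr1, the calcium release channel, from 474–582 to 266–388 CPM (-0.69 ± 0.17); Cacna1g, a T-type calcium channel gene, rose by 0.40 ± 0.14.

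At the synapse, 14 of 34 presynaptic genes fell and 1 rose (median -0.31), and 12 of 27 postsynaptic density genes fell and 0 rose (median -0.35). Rims1, a scaffold of the release site, had 181, 201, 185, 187 and 205 CPM in the saline libraries and 135, 115, 130.4 and 119 CPM in the kainate libraries (log2 change -0.62 ± 0.12, adjusted p = 0.000764). Slc17a6, the vesicular glutamate transporter VGLUT2, had 39.8, 38.4, 40.9, 29.8 and 55.9 CPM in the saline libraries and 17.6, 22.8, 30.2 and 16 CPM in the kainate libraries (log2 change -0.92 ± 0.22, adjusted p = 0.00391). Baiap3, a dense-core vesicle protein, had 7.2, 5.67, 12.1, 18.6 and 41 CPM in the saline libraries and 4.92, 2.6, 3.19 and 3.66 CPM in the kainate libraries (log2 change -2.23 ± 0.54, adjusted p = 0.00536). Baiap3 reached 41 CPM in saline replicate 5, and Slc17a6 in kainate replicate 3 came just above the lowest saline value. The rise was of Sv2c, a vesicle protein, which did not pass without kainate replicate 2 (adjusted p = 0.173). Dlg2, the scaffold PSD-93, had 329, 344, 317, 315 and 364 CPM in the saline libraries and 255, 231, 239 and 207 CPM in the kainate libraries (log2 change -0.52 ± 0.11, adjusted p = 0.00236). Ankrd63 had 10.6, 9.52, 10.8, 15.9 and 15.9 CPM in the saline libraries and 4.42, 1.1, 3.28 and 4.8 CPM in the kainate libraries (log2 change -1.87 ± 0.38, adjusted p = 0.00128). Homer2 went from 88.2–99.9 to 29.8–79.4 CPM (-0.85 ± 0.22) and Lrrc7, densin, from 186–216 to 132–168 CPM (-0.48 ± 0.12). All of these postsynaptic genes separated the groups.

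Among called, named genes of at least 1 CPM whose groups do not overlap, the largest falls were of genes at low levels. Rtl3, a gene derived from a retrotransposon, had 4.88, 6, 2.52, 3.62 and 2.79 CPM in the saline libraries and 0.603, 0.257, 0.254 and 0.234 CPM in the kainate libraries (log2 change -3.52 ± 0.46, adjusted p = 3.1e-05). Irs4, an insulin receptor substrate, had 0.731, 0.952, 1.3, 1.95 and 5.17 CPM in the saline libraries and 0.402, 0.587, 0.277 and 0.146 CPM in the kainate libraries (log2 change -2.53 ± 0.68, adjusted p = 0.01). Otof, otoferlin, had 3.3, 4.14, 4.53, 3.83 and 27.9 CPM in the saline libraries and 2.44, 1.8, 2.52 and 1.76 CPM in the kainate libraries (log2 change -2.03 ± 0.61, adjusted p = 0.0194). In Irs4 and Otof saline replicate 5 stood far above the other saline libraries, as it did for Baiap3 and Penk. Without it the log2 change of Otof was -0.89 and did not pass. Ngb, neuroglobin, went from 1.28–6.12 to 0.728–1.08 CPM (-2.02 ± 0.40), Ano2, a calcium-activated chloride channel, from 4.76–11.7 to 1.8–3.93 CPM (-1.75 ± 0.41) and Rasd1, a Ras-like protein induced by glucocorticoids, from 7.61–9.89 to 2.11–3.87 CPM (-1.61 ± 0.34). Ano2 had 10.9, 4.76, 10.2, 11.7 and 6.6 CPM in the saline libraries, higher in replicates 1, 3 and 4. Frem1, a matrix protein, had 16.6, 7.2, 26.9, 25.7 and 6.84 CPM in the saline libraries and 6, 2.53, 6.84 and 5.1 CPM in the kainate libraries (log2 change -1.70 ± 0.50, adjusted p = 0.0185) and did not pass without kainate replicate 2 (adjusted p = 0.0517). Its saline values were also high in replicates 1, 3 and 4, as the choroid plexus sums were; the part of that tissue in the falls of Ano2 and Frem1 was not tested.

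Activity-dependent genes were partly raised on day 4. Of 30 immediate early genes 10 rose and 1 fell (median 0.16). Atf3, a stress-induced factor, had 0.596, 0.538, 0.533, 0.578 and 0.892 CPM in the saline libraries and 4.67, 8.22, 4.13 and 8.41 CPM in the kainate libraries (log2 change 3.33 ± 0.63, adjusted p = 0.000794). Fosb had 0.867, 1.32, 0.948, 2.1 and 1.99 CPM in the saline libraries and 3.11, 2.9, 3.23 and 3.93 CPM in the kainate libraries (log2 change 1.19 ± 0.25, adjusted p = 0.00205). Ier5 had 20.1, 16.6, 20.4, 23.5 and 20.3 CPM in the saline libraries and 27.8, 31.7, 55.4 and 45 CPM in the kainate libraries (log2 change 0.98 ± 0.16, adjusted p = 0.000189). Every kainate value of the 3 was above the saline values. Homer1, whose short form is induced by activity, fell from 156–192 to 127–164 CPM (log2 change -0.35 ± 0.11, adjusted p = 0.0187); the count joins its forms. Maff was at 10.3 CPM in kainate replicate 2 and at 0.854–2.37 CPM in the others, against 0.248–0.514 CPM in saline (log2 change 3.19 ± 0.61, adjusted p = 0.000878; log2 change 1.85 without replicate 2). Among 17 trophic and secreted activity genes 7 rose and 2 fell. Inhba, activin, had 5.79, 5.38, 5.57, 6.81 and 6 CPM in the saline libraries and 16.6, 15, 26.3 and 23.6 CPM in the kainate libraries (log2 change 1.79 ± 0.33, adjusted p = 0.000631). Nptx2, a pentraxin that gathers AMPA receptors, had 11.9, 11.6, 12.8, 13.7 and 20.1 CPM in the saline libraries and 20.1, 66.9, 58.5 and 26.5 CPM in the kainate libraries (log2 change 1.61 ± 0.27, adjusted p = 0.000305). Kainate replicate 1 met the highest saline value there. Ntf3, neurotrophin 3 of granule cells, fell from 5.02–7.06 to 1.73–3.19 CPM (log2 change -1.38 ± 0.18, adjusted p = 3.84e-05), and Vegfa from 30.7–43.5 to 16.1–27.3 CPM (log2 change -0.74 ± 0.15, adjusted p = 0.00147). Fgf2 rose from 7.85–10.8 to 14.6–52 CPM (1.70 ± 0.38) and Tgfb1 from 0.365–0.952 to 1.94–4.22 CPM (2.08 ± 0.42).

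Myelin genes, expressed by mature oligodendrocytes, fell in 6 of 20 cases and rose in 3 (median -0.53, -0.33 without kainate replicate 2). Mbp, myelin basic protein, had 2142, 2415, 3017, 2293 and 2241 CPM in the saline libraries and 1234, 1142, 1776 and 1991 CPM in the kainate libraries (log2 change -0.66 ± 0.17, adjusted p = 0.00869). Mal, a lipid raft protein of myelin, had 754, 558, 823, 439 and 538 CPM in the saline libraries and 264, 212, 419.9 and 400.5 CPM in the kainate libraries (log2 change -0.94 ± 0.22, adjusted p = 0.00333). Gjc3, an oligodendrocyte connexin, had 62.5, 67.8, 64.7, 47.7 and 50.8 CPM in the saline libraries and 30.7, 21.9, 37.2 and 32.4 CPM in the kainate libraries (log2 change -0.94 ± 0.18, adjusted p = 0.000878). The kainate libraries stayed below the saline libraries in each. Mobp fell as well (log2 change -0.73 ± 0.18, adjusted p = 0.00571). The genes that rose were Myrf, the factor that drives myelin genes (log2 change 0.62 ± 0.15, adjusted p = 0.0056), Trf and Apod, a lipid carrier also made by other cells. Trf shares 63.9% of its words with other genes. Oligodendrocyte precursor genes rose in 3 of 15 cases and fell in 0, beside 14.3% and 11.8% of all genes. Without kainate replicate 2, 8 rose and 1 fell. Vcan, a proteoglycan of these cells, went from 38.5–47.1 to 66.3–114 CPM (log2 change 0.98 ± 0.22, adjusted p = 0.00336) and Tmem100 from 12.7–14.5 to 13.7–32.2 CPM (log2 change 0.81 ± 0.20, adjusted p = 0.00686). Gpr17, a receptor of cells about to form myelin, had 80.6, 82.2, 111, 72.7 and 91.7 CPM in the saline libraries and 332, 2.75, 235 and 246 CPM in the kainate libraries and did not pass (log2 change 1.22 ± 0.62, adjusted p = 0.16). Without kainate replicate 2 its log2 change was 1.63 (adjusted p = 8e-06). Pdgfra, the precursor's growth factor receptor, did not pass either (log2 change -0.37 ± 0.15, adjusted p = 0.0776) and was called lower without that library (log2 change -0.67, adjusted p = 1.77e-05).

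Cholesterol synthesis genes fell in 9 of 24 cases and rose in 0 (median -0.31). The fit to the 9 EZH2nHom libraries alone called 2 lower, and the median difference from the saline mean was -0.63, -0.34, 0.04 and -0.44 in the 4 kainate libraries. Idi1, an isomerase of the isoprenoid steps, had 89.7, 70.6, 92.3, 66 and 85.7 CPM in the saline libraries and 40.6, 42.8, 63.7 and 48.4 CPM in the kainate libraries (log2 change -0.73 ± 0.14, adjusted p = 0.000778), and 27.1% of its words occur in other genes. Hmgcs1, the synthase at the start of the pathway, had 455, 359, 497, 343 and 486 CPM in the saline libraries and 192, 256, 405 and 232 CPM in the kainate libraries (log2 change -0.66 ± 0.18, adjusted p = 0.00944). Sc5d, a late sterol desaturase, had 99.3, 92.7, 105, 83.6 and 97.3 CPM in the saline libraries and 62.1, 64.6, 82 and 70.3 CPM in the kainate libraries (log2 change -0.46 ± 0.09, adjusted p = 0.00124). Kainate replicate 3 stood highest of the kainate libraries in all 3 genes and, for Hmgcs1, within the saline range; Hmgcs1 did not pass in the fit to the 9 libraries (adjusted p = 0.0645). Among nuclear genes of oxidative phosphorylation and genes of glycolysis few passed: 1 of 24 genes rose and 1 fell in the first (median -0.02), and 3 of 20 rose and 2 fell in the second (median -0.01). With kainate replicate 2 left out there were 2 rises and 2 falls in the first (median -0.11) and 3 and 4 in the second. Over all genes and libraries 14.3% rose and 11.8% fell. The oxidative phosphorylation list holds no subunit encoded by the mitochondrial genome. Of the 13 such protein genes, looked at after values were seen, 6 fell and 0 rose (median -0.29), mt-Cytb of complex III among them; 5 fell without kainate replicate 2 and 4 in the fit to the 9 libraries alone. Hk2, the inducible hexokinase, had 6.82, 6.91, 6.64, 5.87 and 6.63 CPM in the saline libraries and 22.5, 30.3, 22.3 and 32.2 CPM in the kainate libraries (log2 change 2.03 ± 0.24, adjusted p = 1.34e-05). Ldha rose from 162–190.1 to 176–265 CPM (log2 change 0.37 ± 0.10, adjusted p = 0.00917) and Pfkfb3, which speeds glycolysis, from 19.1–23.6 to 24.8–37.5 CPM (0.50 ± 0.15).

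Cytosolic ribosomal protein genes rose by a little in 24 of 40 cases and fell in 0, and all 40 had a log2 change above 0 (0.06 to 0.76). Without kainate replicate 2, 18 rose. Rps9 had 138, 123, 145, 137 and 137 CPM in the saline libraries and 173, 206, 223 and 275 CPM in the kainate libraries (log2 change 0.69 ± 0.10, adjusted p = 7.59e-05). Rpl18 had 68.6, 60.5, 69, 80.6 and 82.5 CPM in the saline libraries and 83.9, 120.5, 109 and 139.9 CPM in the kainate libraries (log2 change 0.65 ± 0.12, adjusted p = 0.000608). Rps20 had 50.8, 45.2, 47.7, 47.7 and 49.9 CPM in the saline libraries and 56, 67.5, 67.9 and 80.3 CPM in the kainate libraries (log2 change 0.49 ± 0.09, adjusted p = 0.000813). The groups did not overlap in these genes, and kainate replicate 1 was closest to saline. Many ribosomal protein genes have processed copies elsewhere in the genome, which can take up reads.

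Few Polycomb genes passed with all libraries. For the lists of this paragraph, the shares over all genes were 14.3% higher and 11.8% lower. Of 13 PRC2 genes 1 rose and 1 fell (median -0.05), and of 22 genes of PRC1 and the demethylases of H3K27 1 rose and 0 fell (median -0.11). With kainate replicate 2 left out, 1 PRC2 gene rose and 4 fell (median -0.16), and in the other list 2 rose and 5 fell (median -0.19). Phf19, a PRC2 partner expressed in dividing cells, had 1.19, 1.16, 0.77, 1.06 and 0.951 CPM in the saline libraries and 4.32, 1.47, 2.49 and 5.68 CPM in the kainate libraries (log2 change 1.77 ± 0.40, adjusted p = 0.00297). Ezh1 had 66.5, 73.4, 59.3, 66.7 and 57.6 CPM in the saline libraries and 48.3, 45.9, 53.5 and 44.8 CPM in the kainate libraries (log2 change -0.43 ± 0.11, adjusted p = 0.00892). Kdm6b, a demethylase that removes the PRC2 mark, had 2.44, 3.48, 3.38, 5.42 and 4.43 CPM in the saline libraries and 6.93, 5.5, 4.07 and 6.86 CPM in the kainate libraries (log2 change 0.61 ± 0.20, adjusted p = 0.0277). Phf19 and Ezh1 separated the groups and Kdm6b did not. Eed, the core subunit that reads the mark, did not pass (log2 change 0.33 ± 0.12, adjusted p = 0.0527). Of 79 genes listed as developmental factors that Polycomb keeps silent, 16 passed the filter on low counts, 2 of those rose and 0 fell (median 0.03). The other 63 had 180 reads together over the 5 saline libraries and 182 over the 4 kainate libraries, and 28 of them had none. These sums are not scaled for depth and join genes that moved apart. Cdkn2a had 0 and 19 reads and Hoxd1 had 12 and 0, both named after their values were seen. Pax5, a B cell and midbrain factor, had 0.0542, 0.166, 0.0296, 0 and 0.208 CPM in the saline libraries and 0.778, 0.293, 0.393 and 0.557 CPM in the kainate libraries, with 14 saline reads in all. Gata2 was at 2.75 CPM in kainate replicate 2, at 0.557–0.603 CPM in the other kainate libraries and at 0.352–0.73 CPM in saline, and did not pass without that library (adjusted p = 0.551). Lists of other tissues were read for comparison. Of 17 measured markers of neighbouring brain regions 3 rose and 1 fell, with a summed level of 248 to 307 CPM in saline, 435 CPM in kainate replicate 2 and 246 to 275 CPM in the other kainate libraries. Besides Gal these were Th (log2 change 1.0 ± 0.30, adjusted p = 0.0208), the rate-limiting enzyme of catecholamine synthesis, and Drd1 (log2 change 0.59 ± 0.21, adjusted p = 0.0469), a dopamine receptor, while Fezf2, a factor of deep cortical layers, fell (log2 change -0.30 ± 0.10, adjusted p = 0.0274); all 3 overlapped between the groups and none of the 3 passed in the fit to the 9 libraries alone. The 7 red blood cell genes did not pass, for example Alas2 (-0.25 ± 0.47).

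Kainate replicate 2 differed from the other kainate libraries in the following genes. Sgk1, a kinase induced by glucocorticoids, was at 494 CPM there, at 60.4–75.7 CPM in the other kainate libraries and at 38.1–61.4 CPM in saline; it passed (log2 change 1.73 ± 0.46, adjusted p = 0.01) but not without that library (adjusted p = 0.0831). Per1, a clock gene that glucocorticoids induce, was at 140.4 CPM against 14.5–17.8 and 14.2–24.2 CPM and did not pass (log2 change 1.31 ± 0.49, adjusted p = 0.0586). Of 14 glucocorticoid-responsive genes 4 rose and 0 fell (3 and 4 without this library), and the median log2 difference from the saline mean was 1.39 in this library and -0.09, -0.09 and -0.17 in the others. Without it the list's fitted median turned from 0.44 to -0.20. Hspb1, a small heat shock protein, was at 116 CPM against 6.25–16.2 and 1.11–2.43 CPM, with a log2 change of 4.46 ± 0.88 with and 2.62 without that library; 55.4% of its words are shared with other genes. Apod was at 1835 CPM against 306–581 and 94.5–188 CPM, with a log2 change of 2.39 ± 0.45 with and 1.48 without that library (adjusted p = 0.0028). Low in this library were Gpr17, at 2.75 CPM against 235–332 CPM in the other kainate libraries, and Neu4, a sialidase of oligodendrocyte precursors, at 3.67 CPM against 27.8–32 CPM. Its sample code prefix is shared with no other library of the series, so library and prefix cannot be told apart.

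**Figure D4:**
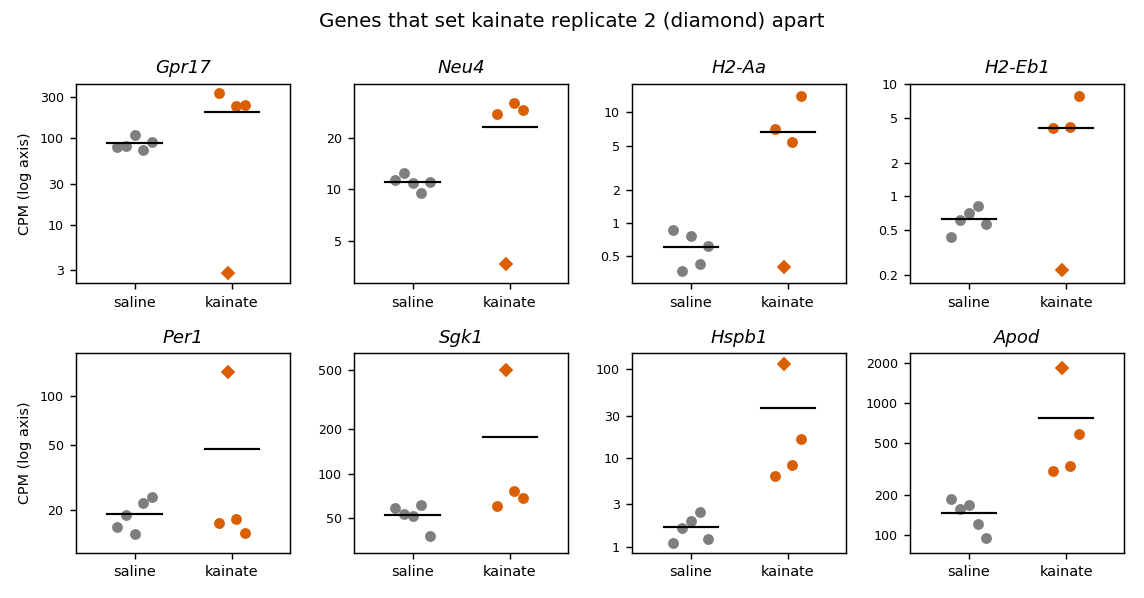
CPM on a log axis in the 5 saline and 4 kainate libraries of EZH2nHom, with kainate replicate 2 as a diamond and group means as black lines. In that library Gpr17, Neu4, H2-Aa and H2-Eb1 lay below the other kainate libraries and Per1, Sgk1, Hspb1 and Apod above them.

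The same contrast in WT, with 5 libraries per treatment in the same fit, gave 1821 genes higher (9.47%) and 495 lower (2.57%). Kainate and saline were each set against their own genotype, so the 2 contrasts share no libraries, but they share the fit's estimate of the spread. Of the EZH2nHom rises, 1569 were called in WT and 2639 of 2746 had a WT change above 0; of the falls, 311 were called and 2062 of 2266 had a WT change under 0. The median WT change of the EZH2nHom rises was 0.78, and that of the falls -0.19; the genes were chosen for passing in EZH2nHom, so these medians are a description. The log2 change of Gfap was 3.51 ± 0.21 in EZH2nHom and 3.27 ± 0.20 in WT, and that of Calb1 -1.07 ± 0.14 and -1.03 ± 0.13. For Mbp the values were -0.66 ± 0.17 and -0.08 ± 0.16, for mt-Cytb -0.60 ± 0.10 and -0.04 ± 0.10, and for Slc17a6 -0.92 ± 0.22 and 0.19 ± 0.20. Mean mt-Cytb was 4111 CPM in saline and 2711 CPM after kainate in EZH2nHom, and 2166 and 2107 CPM in WT. For Mbp these means were 2422 and 1536 CPM in EZH2nHom, and 2187 and 2067 CPM in WT. The differences in saline level were not tested. Over the 31 type I interferon genes the median was 3.90 in EZH2nHom and 2.85 in WT. It was 3.41 and 2.31 over the reactive astrocyte genes, -0.74 and -0.42 over the interneuron genes, and -0.53 and 0.11 over the myelin genes.

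**Figure D5:**
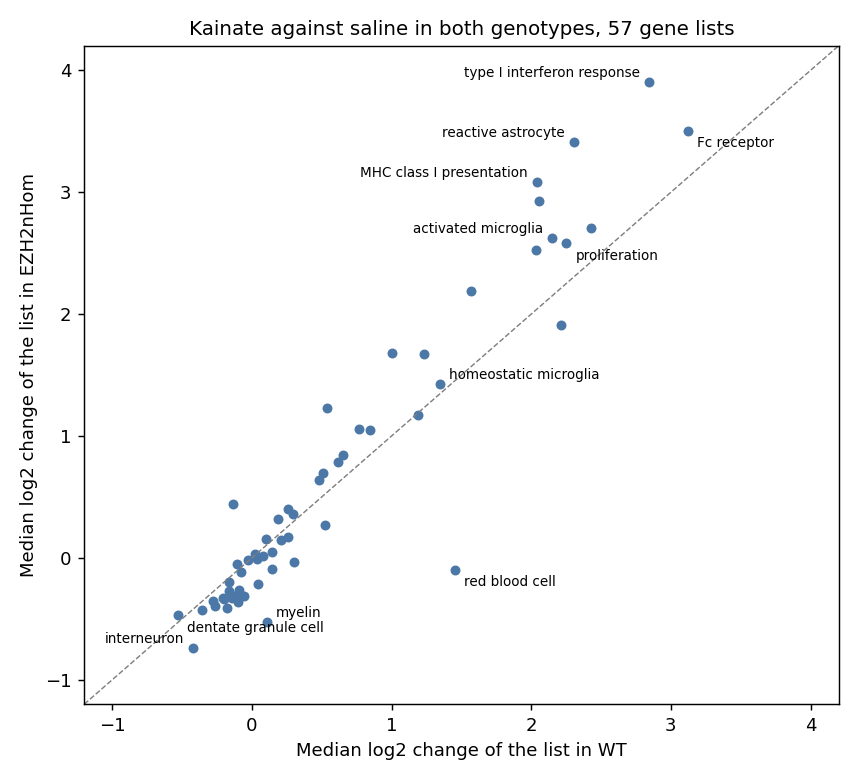
Each point is a gene list, with the median log2 change of kainate over saline in WT on the x axis and in EZH2nHom on the y axis; the dashed line marks equal values. Of 57 lists drawn (choroid plexus is left out for its spread between libraries), 43 have the larger absolute median in EZH2nHom, and no gene passed the test of the difference.

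The difference itself was tested as an interaction of genotype and treatment. No gene of 19234 passed in edgeR (0%), with 1685 genes at an unadjusted p under 0.05 and a smallest adjusted p of 0.1277. DESeq2's Wald test, run on all genes with a read, called 14, among them Gm37383, which is outside the 19234. Of the 14, Gm28635 had EZH2nHom reads in kainate replicate 1 alone, at 2.185 CPM. The falls of Mbp, mt-Cytb and Slc17a6 in EZH2nHom are therefore not shown to differ from WT. Without kainate replicate 2, edgeR called 4 genes, named here after their values were seen. Ctr9, a subunit of the PAF1 complex, had 103, 98.2, 99.8, 96.3 and 96.1 CPM in EZH2nHom saline and 73.9, 65, 74.8 and 76 CPM in EZH2nHom kainate. In WT it had 66.6, 67.4, 64.5, 60.3 and 63.2 CPM in saline and 66.2, 67.1, 63.5, 66.5 and 72.5 CPM in kainate. The kainate libraries of the 2 genotypes thus lay close together, and the saline libraries of EZH2nHom lay above those of WT (difference of the log2 changes -0.46, adjusted p = 0.0334). Tomm6, of the mitochondrial import pore, had 37.3, 39.3, 35.9, 41.4 and 40.3 CPM and 27.6, 29.8, 25.1 and 28.8 CPM in EZH2nHom saline and kainate, and 20.2, 19.3, 20.0, 21.9 and 20.6 CPM and 21.6, 20.3, 23.9, 23.9 and 24.1 CPM in WT. Lars2, the mitochondrial leucyl-tRNA synthetase, had 9.37, 8.07, 7.2, 8.46 and 8.03 CPM and 13.2, 8.07, 13.9 and 13.5 CPM in EZH2nHom, and 25.2, 43.7, 57.6, 58.4 and 51.5 CPM and 26.7, 26.3, 31.2, 23.7 and 22.6 CPM in WT. Lars2 rose in EZH2nHom (0.57 ± 0.20) and fell in WT, but even its kainate level in EZH2nHom stayed below every WT library. The fourth, a gene without a symbol, had 51.7, 78.4, 42.9, 72.7 and 59.9 CPM in EZH2nHom saline and 132, 2450, 190 and 252 CPM in EZH2nHom kainate. In WT this gene had 327, 469, 500, 475 and 455 CPM in saline and 326, 354, 390, 304 and 354.5 CPM in kainate. Its 2450 CPM was in kainate replicate 2, the library left out of this fit. Levels in saline thus differed between genotypes in Ctr9, Tomm6, Lars2 and the gene without a symbol. No sample code prefix occurs in both genotypes, so prefix and genotype cannot be told apart.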

How the data were processed

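RNA of 19 hippocampal libraries, depleted of ribosomal RNA, was sequenced on an Illumina instrument, per the labels' protocols. The authors deposited raw read counts for 55416 Ensembl genes, 32474 of them with a read; build mm39, DESeq and DESeq2 are named per the submitters' processing notes, and the aligner, counter and strand setting are not given in the sources used here. A deposited signal column, the mean of counts divided by size factors per the file headers, and the authors' fold changes were not analysed; that table gave 32313 gene symbols, 20022 came from a reference list, and 3081 genes have none. Kainate replicates carry the numbers of the sample titles, which are 1 below those of the count columns.

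Counts were filtered with filterByExpr, scaled by TMM and fitted with edgeR 4.0.16 (glmQLFit, robust, R 4.3.3), 1 mean for each of 4 groups over all 19 libraries, with two-sided tests and Benjamini-Hochberg adjustment over 19234 genes. The median SE of the EZH2nHom log2 change was 0.182. DESeq2 1.42.0 served as an alternative. The code was tested on simulated data. Differences of single libraries are on log2(CPM + 0.1).

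The comparison and the 58 gene lists (1274 genes, 1272 matched, 1179 tested) were chosen with earlier results of these data known, so list counts are descriptions. Genes were named by rule: Ezh2, the 15 largest rises and falls and the 10 largest changes in CPM among non-overlapping genes of at least 1 CPM, and up to 6 genes per list by p, with those moving against the list; some of these are not reported here. No fold is given where the saline group had 15 reads or fewer. A gene is called uncertain where over 20% of its 31-base words occur in other genes. Promoter sequences are from RefSeq on GRCm38.p6, matched by symbol; no coordinate was carried between builds.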

Additional observations from a re-analysis of the deposited data

Results flagged for a closer look

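Among the genes named, 525 groups of libraries were searched for a value whose gap to its nearest neighbour took up more of the group's range than Dixon's 95% critical value for 4 kainate or 5 saline libraries. Chance flags about 1 in 20 such groups, and 34 were found. Of these, 11 lie in kainate replicate 2.

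In kainate replicate 1, in CPM and against the other kainate libraries, Adarb2 was at 28.7 against 20.8–21.9 and Rtl3 was at 0.603 against 0.234–0.257 CPM. In kainate replicate 2, in CPM and against the other kainate libraries, Cpne4 was at 34.6 against 50.2–53.9, Dlx1as was at 0.183 against 1.22–1.71, Fgf1 was at 24 against 51.2–57.6 and Gata2 was at 2.75 against 0.557–0.603 CPM. In the same library Gjb6 was at 91.1 against 53.3–54.8, Gpr17 was at 2.75 against 235–332, Kcnip2 was at 21.5 against 38.1–41.8 and Nes was at 129 against 34.1–39.3 CPM. In the same library Neu4 was at 3.67 against 27.8–32.1, Per1 was at 140 against 14.5–17.8 and Sgk1 was at 494 against 60.4–75.7 CPM. In kainate replicate 3, in CPM and against the other kainate libraries, Kl was at 30 against 8.37–10.4 CPM. In kainate replicate 4, in CPM and against the other kainate libraries, Ccl5 was at 4.22 against 1.22–1.46 CPM. In saline replicate 1, in CPM and against the other saline libraries, Fgfr3 was at 49.9 against 62.5–67.6, Kcnj10 was at 46.2 against 54–56.6 and Tnf was at 0.0812 against 0 CPM. In saline replicate 2, in CPM and against the other saline libraries, Cdkn1a was at 1.37 against 2.11–2.4 and Tlr2 was at 0.331 against 1.19–1.71 CPM. In saline replicate 3, in CPM and against the other saline libraries, Cxcl10 was at 0.0593 against 0.271–0.365 CPM. In saline replicate 4, in CPM and against the other saline libraries, Hk2 was at 5.87 against 6.63–6.91, Irf7 was at 0.821 against 1.16–1.27 and Tlr7 was at 2.56 against 3.63–4.06 CPM. In saline replicate 5, in CPM and against the other saline libraries, Atf3 was at 0.892 against 0.533–0.596, Cacng3 was at 34.7 against 22–24.7, Cryab was at 57.9 against 71.3–75.4 and Drd1 was at 12.9 against 6.02–7.49 CPM. In the same library Gfap was at 259 against 330–358, Nxph1 was at 38.6 against 20.9–24.8, Otof was at 27.9 against 3.3–4.53 and Penk was at 51 against 15.7–18.3 CPM. In the same library Saa3 was at 0.0297 against 0 and Sv2c was at 44 against 31.7–33.9 CPM.

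The values of Saa3 and Tnf flagged in saline rest on 1 and 3 reads. No explanation of these values was tested.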

How the results depend on the processing

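With DESeq2 size factors, upper-quartile factors, DESeq2's Wald test, no filter or a stricter filter, Y-linked expression as a covariate, or offsets for GC content and length, 4308 to 5626 genes were called in EZH2nHom, within 1.5 times the 5012 reported. The fit to the 9 EZH2nHom libraries called 3066 genes, 935 of them lower, with fewer libraries behind the spread. At an adjusted p under 0.01 there were 2815 calls, 1781 higher and 1034 lower. Leaving out 1 library at a time gave 3864 to 6096 calls, 2211 to 3206 higher and 1653 to 3102 lower, the most calls without kainate replicate 2.

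Title numbers were checked as a pairing: same-numbered libraries deviated together with r of -0.031, 0.111, 0.185 and 0.136, 3 of 4 over 0.1. Kainate replicates 2, 3 and 4 each correlated best with the saline library of their own number and kainate replicate 1 with saline replicate 2 (0.209). Other numbers came close: kainate replicate 2 with saline 5 (0.104), 3 with saline 1 and 4 (0.13 and 0.158), and 4 with saline 3 (0.123). The labels do not state a pairing and not every pair passed 0.1, so the numbers were not used as pairs. Whether libraries are paired was not tested further. With the replicate block, the 9 libraries gave 2151 calls by title numbers (1556 higher, 595 lower) and 1619 by column numbers (1283 higher, 336 lower). By title numbers 33 named genes lost their call: Ccr2, Cd36, Cryab, Dcx, Ezh1, Fezf2, Fgf1, Gabbr1, Gata2, Grik1, Grik2, Grm8, H2-Eb1, H2-Oa, Homer1, Irs4, Itga4, Kdm6b, Lamb1, Ldha, Maf, Maff, Map2, Nectin3, Neto1, Neu4, Pfkfb3, Pim1, Sc5d, Sgk1, Slc6a11, Sst and Th.

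For the difference of the kainate responses, DESeq2's Wald test on all genes with a read called 14. The main edgeR fit called 0, and edgeR without kainate replicate 2 called 4. The Ezh2 difference ranged from 3.284 to 4.953 CPM with 1 library left out, and its exact p passed 0.05 without saline replicate 2, 3, 4 or 5 or kainate replicate 2 or 4; fewer libraries leave fewer relabellings. With 1 library left out the median of the glucocorticoid-responsive list ranged from -0.20 without kainate replicate 2 to 0.68, and that of the red blood cell list from -0.44 to 0.17, above 0 without kainate replicate 1 (0.11) or 2 (0.17). For these results the cause was not tested. In all, 8 of 58 list medians changed sign under any alternative.

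Of 245 named genes that were called, 197 kept the call in all settings counted gene by gene, and none reversed. Those settings were DESeq2 size factors, DESeq2's Wald test, the fit to the 9 libraries and the block by title numbers. The 9 fits that leave out a library were counted too. The stricter threshold, the column-number block and the other settings of this section were not counted by gene. Calls lost without a single library, beside those given above, were Ccr2 (2.71), H2-Eb1 (2.16), Trf (0.95), Pfkfb3 (0.38), Dcx (-0.35), Homer1 (-0.31) and Otof (-1.95) without kainate replicate 4, Grm8 (-0.51), Hmgcs1 (-0.49), Homer1 (-0.29) and Kif5a (-0.38) without kainate replicate 1, and Th (0.83) and Dcx (-0.29) without kainate replicate 3, as log2 changes. Near the threshold, Amigo2, Cacna1g, Cd36, Cryab, Drd1, Fezf2, Gata2, Kdm6b, Maf, Map2, Neto1, Neu4, Sp8, Sv2c and Vwf each lost the call in at least 3 of the 9 fits that leave out a library. Changes of genes with a few reads per library are limited by depth.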
